A study of Homo sapiens with 32 samples.

Results

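The 9 genes described here encode enzymes and enzyme subunits of the tricarboxylic acid (TCA) cycle: CS, IDH2, IDH3A, OGDH, DLST, SUCLA2, SUCLG2, FH and MDH2. They were chosen by name, with the succinate dehydrogenase subunits left out, from 20037 protein-coding genes of the GRCh38.p14 RefSeq gene table. A peak was counted for a gene where it overlapped the gene body by at least 1 bp. Of 474004 m6A peaks in 16 libraries, 176 lay in these 9 genes. 8 of the genes held at least 1 peak and FH held none.

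The study asked how loss of SETD2, the enzyme that trimethylates histone H3 lysine 36 (H3K36me3), affects m6A in kidney cells. 786-O is a clear cell renal cell carcinoma (ccRCC) line and RPTEC an immortalized line of renal proximal tubule cells that served as surrogate normal. In each, m6A was profiled by MeRIP-seq, in which RNA fragments are immunoprecipitated with an antibody against m6A and called as peaks against Input RNA. No cells were treated. The groups in 786-O were the SETD2 WT parent, the SETD2 knockout clones SETD2KO-1 and SETD2KO-2, and SETD2KO-1R, which is SETD2KO-1 rescued with a FLAG-tagged full-length SETD2 transgene and again derived as a clone. RPTEC had the same 4 groups. Each group had 2 IP libraries, which gave 4 SETD2KO libraries and 4 SETD2-expressing libraries (WT and SETD2KO-1R) in each cell line. Every knockout is 1 clone and every rescue is 1 clone, so the SETD2 comparison has 2 lines on each side. No source says that the 2 libraries of a line came from separate cultures, so p-values measure the spread between these libraries, which may be technical.

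The TCA cycle runs in the mitochondrial matrix, where it oxidizes acetyl-CoA to carbon dioxide and passes electrons to the respiratory chain. Citrate synthase opens it, dehydrogenases convert isocitrate and 2-oxoglutarate, succinyl-CoA synthetase makes a nucleoside triphosphate, and fumarase and malate dehydrogenase regenerate oxaloacetate. Proximal tubule cells depend on mitochondrial oxidation, and ccRCC is known for altered mitochondrial metabolism. m6A is a methyl mark that METTL3 and its partners place on adenosines of nascent RNA, most often near stop codons and in long internal exons.

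The lists held 19249 to 39670 peaks per library, with 25710 to 39670 in 786-O and 19249 to 31207 in RPTEC. They give no read counts, so the depth behind a peak is unknown, single peaks come without an interval, and a gene without a peak may carry a peak under the calling threshold. Transcript levels were not analysed here. In bulk RNA, fewer cells of a type and less RNA per cell cannot be told apart. Peaks over SETD2 itself numbered 6.0 ± 2.71 in the 786-O SETD2KO libraries and 8.5 ± 1.29 in the SETD2-expressing ones (SD, n = 4 each, p = 0.2 by a two-sided exact permutation test). In RPTEC they numbered 4.75 ± 0.957 and 9.5 ± 1.73 (p = 0.0286 by the same exact test). They are no check of the knockout, since the edited exon was not located.

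The 9 genes differed widely in how often a peak was called. OGDH and SUCLG2 held a peak in all 16 libraries, as did 23.1% of protein-coding genes. IDH2 held one in 15 libraries, SUCLA2 in 9, CS in 8, MDH2 in 7, DLST in 6 and IDH3A in 2. FH, the fumarase gene, was among the 33.0% of protein-coding genes with no peak in any library. Per library, the 9 genes together held 10 to 17 peaks in 786-O and 7 to 13 in RPTEC. As a share of the list this was 3.05 to 4.78 peaks per 10000 in 786-O and 2.66 to 4.41 per 10000 in RPTEC.

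**Figure D1:**
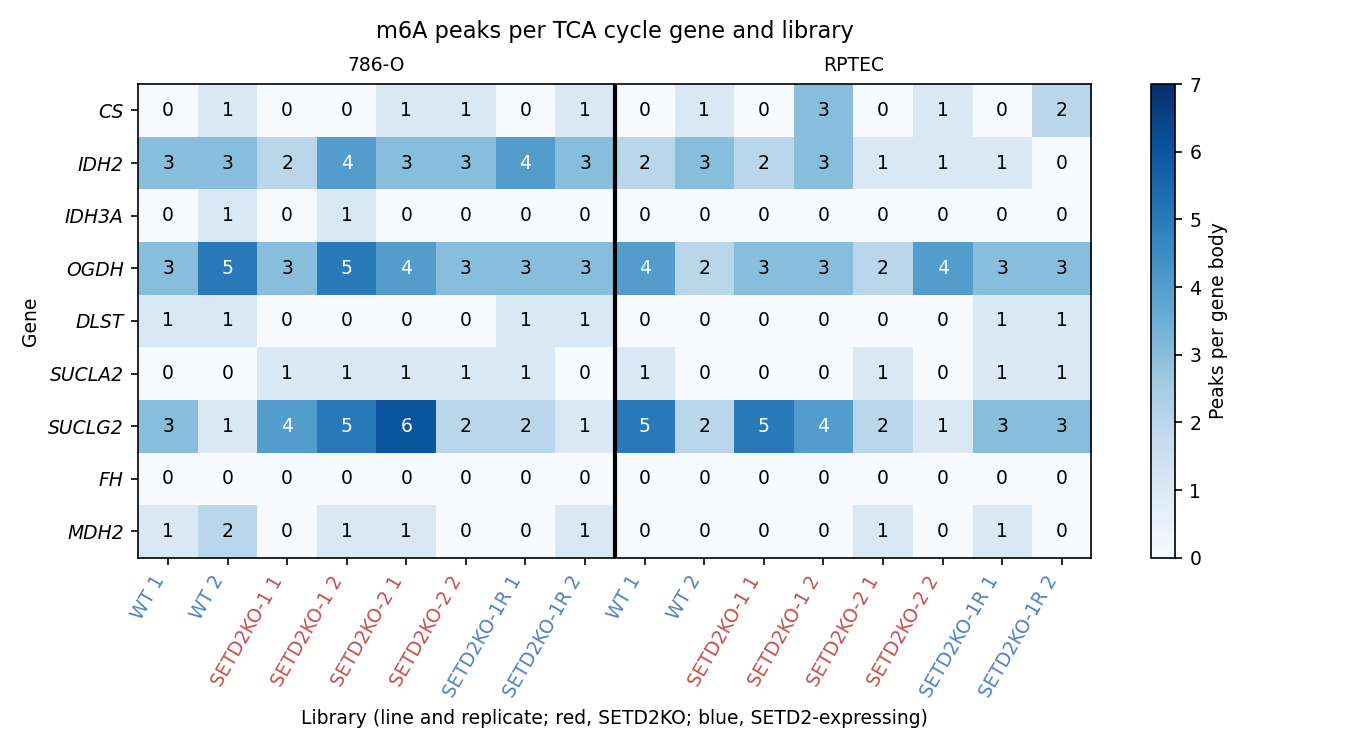
Number of m6A peaks in the body of each TCA cycle gene (rows) in each library (columns), with 786-O left of the black line and RPTEC right of it. SETD2KO libraries are labelled in red and SETD2-expressing libraries in blue. OGDH and SUCLG2 have a peak in every column, FH in none, and DLST has 1 peak in each of the 4 blue 786-O columns and 0 in the 4 red ones.

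Peak density was taken over the whole gene body, introns included, so it is not a density per spliced transcript. By this measure IDH2 was the most densely marked gene, with 0.122 ± 0.0591 peaks per library and kb (SD, n = 16). OGDH followed at 0.0323 ± 0.00852, then MDH2 at 0.0258 ± 0.0326, CS at 0.0240 ± 0.0305 and DLST at 0.0172 ± 0.0229. SUCLG2 at 0.0104 ± 0.00548, SUCLA2 at 0.00960 ± 0.00874 and IDH3A at 0.00553 ± 0.0151 closed the order of genes with peaks. Over the 16 libraries only IDH2 lay apart from its neighbour by more than the SDs of both, and from OGDH down every neighbouring pair overlapped. IDH2 was also first within each cell line, at 0.161 ± 0.0330 in 786-O and 0.0837 ± 0.0546 in RPTEC (SD, n = 8 each), but OGDH was second in neither. In 786-O the second was MDH2 at 0.0387 ± 0.0364, with OGDH at 0.0354 ± 0.00894. In RPTEC it was CS at 0.0306 ± 0.0393, with OGDH at 0.0293 ± 0.00738, and there the SDs of IDH2 and CS overlapped. The median over the 13420 protein-coding genes with a peak was 0.0407 peaks per library and kb, below IDH2 and above the other 7 genes.

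The score of a peak has no stated scale, so it was read only as a percentile within its own list. The best peak of IDH2 had a median percentile of 98.9 over the libraries with a peak, higher than in 98.6% of genes with a peak. OGDH (94.7) also ranked high, against a median of 65.2 over all genes with a peak. The best MDH2 percentile was 89.1 to 97.7 in 4 libraries and 0.496 to 6.46 in the 3 others with a peak, so that its median of 89.1 stands at the edge of the upper values. CS (73.2), DLST (68.6) and SUCLG2 (55.3) were in the middle, and IDH3A (39.5) and SUCLA2 (25.4) were low.

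When the peaks of all 16 libraries were merged into regions, the members held 49 regions, and none of them overlapped another gene. 20 of the 49 (40.8%) were called in 1 library, against 37.2% of all 99258 regions. 8 of them (16.3%) were called in 8 or more libraries, against 20.9% of all regions. None was called in all 16, which 4.25% of all regions were.

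CS, citrate synthase, which condenses acetyl-CoA with oxaloacetate, held 0 or 1 peak in every 786-O library and 0 to 3 in RPTEC. The RPTEC counts were 0 and 1 in WT, 0 and 3 in SETD2KO-1, 0 and 1 in SETD2KO-2, and 0 and 2 in SETD2KO-1R, for replicates 1 and 2 in that order. All 4 RPTEC libraries numbered 2 had a CS peak and all 4 numbered 1 had none. The most 3′ of the 4 CS regions, chr12:56273193-56273482, lay 1639 bp from the 3′ end of the gene and was called in 4 libraries, each time in 1 of the 2 libraries of a line. Its percentiles ran from 53.0 to 89.5, and its summits lay within 26 bp of each other.

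IDH2, the mitochondrial NADP-dependent isocitrate dehydrogenase, carried the highest-ranked peak of the set. The region chr15:90084246-90084630, 1393 bp from the 3′ end of the gene, was called in 12 libraries. Its percentile was 97.5 to 99.6 wherever it was called, with all 12 summits within 33 bp. 786-O WT replicate 2, 786-O SETD2KO-1 replicate 1, RPTEC WT replicate 2 and RPTEC SETD2KO-1R replicate 2 had no peak there, although the other library of each of these lines did. The gap therefore fell within lines, in 4 of 8 lines, and on both sides of the SETD2 comparison: 3 of 4 SETD2KO and 3 of 4 SETD2-expressing libraries called it in 786-O, and 4 of 4 and 2 of 4 in RPTEC.

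This pattern was also common outside the TCA cycle genes. Of 1196 regions called in at least 8 libraries with a median percentile of at least 95, 24.7% were called in all 16 libraries and 43.6% in 12 or fewer. Among all peaks at the 97th percentile or above, a median of 19.5% (up to 53.5% in single libraries) had no overlapping peak in the other library of the same line. In the 70th to 80th percentile this share was 24.6% (16.6% to 44.1%), and below the 10th it was 72.5% (62.6% to 80.7%). A missing call in 1 library was thus frequent at every rank.

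**Figure D2:**
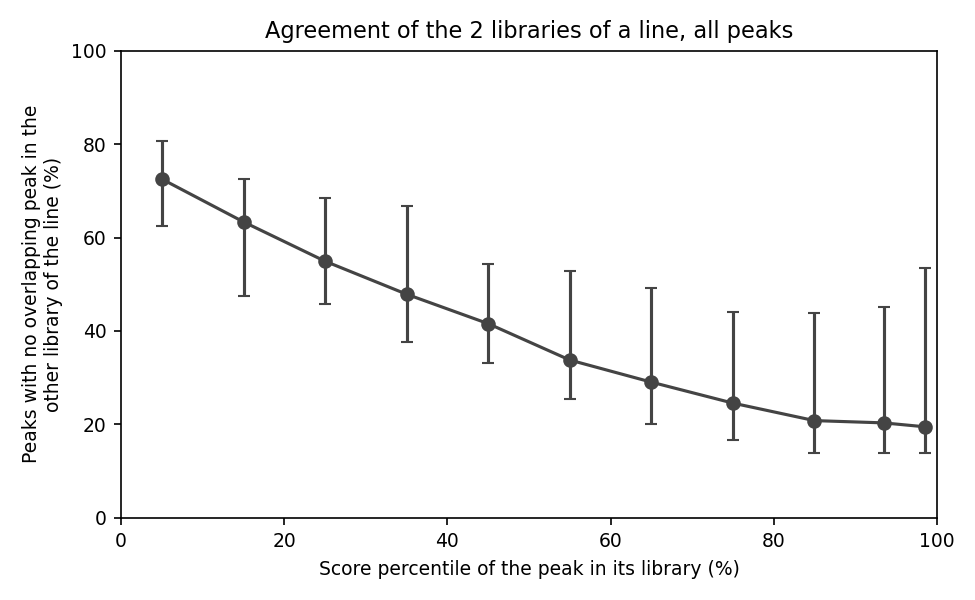
Percentage of all peaks of a library that no peak of the other library of the same line overlaps (y), by the score percentile of the peak (x). Points are medians over 16 libraries and bars run from the lowest to the highest library. The share falls from 72.5% in the lowest-ranked 10% to 24.6% between the 70th and 80th percentile, and stays at 19.5% at the 97th percentile and above.

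IDH2 peak counts in 786-O were 3 and 3 in WT, 2 and 4 in SETD2KO-1, 3 and 3 in SETD2KO-2, and 4 and 3 in SETD2KO-1R. In RPTEC they were 2 and 3 in WT, 2 and 3 in SETD2KO-1, 1 and 1 in SETD2KO-2, and 1 and 0 in SETD2KO-1R. The RPTEC libraries were lower on the whole and the ranges overlapped. IDH2 had 3.13 ± 0.641 peaks in 786-O and 1.63 ± 1.06 in RPTEC (SD, n = 8 each, two-sided p = 0.0112 by exact permutation of the libraries, adjusted p = 0.112 over the 13420 genes tested). The difference shrank from 1.5 to 0.25 peaks when every library kept only the same number of its highest-scoring peaks (exact permutation p = 0.777). Per 10000 peaks of the library, without that cut by score, it was 0.332 (exact permutation p = 0.0623, adjusted p = 0.269). Counted as base pairs covered, 1211 ± 304 in 786-O against 538 ± 363 in RPTEC, it passed the threshold (adjusted exact permutation p = 0.0240), as did 11.4% of all genes by that measure, against 5.36% by peak count. A second IDH2 region inside the gene, chr15:90087612-90088015, 4769 bp from the 3′ end, was called in 9 libraries, 6 in 786-O and 3 in RPTEC, with percentiles from 20.2 to 93.4. Another, chr15:90092397-90092779, was called in 3 libraries of 786-O and 0 of RPTEC (two-sided Fisher's exact test, p = 0.2). Its percentiles ran from 45.4 to 81.8.

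IDH3A, the catalytic alpha subunit of the NAD-dependent isocitrate dehydrogenase, had 1 peak in each of 2 libraries, 786-O WT replicate 2 and 786-O SETD2KO-1 replicate 2, and none in the other 14. The peak of SETD2KO-1 replicate 2 began at base 31 of the gene and that of WT replicate 2 at chr15:78149407. Together they spanned the region chr15:78149392-78149677, at percentiles 37.2 and 41.8 in that order. The first 20 bases are printed because they are the stretch where a counted peak of these genes reaches into the RefSeq promoter windows, which were matched for 8 of the 9 genes. The run is chr15:78149382-78149411 of GRCh38.p14, plus strand, with the bases under a peak in capitals.
IDH3A: tgcggagccaGGAGGGGAAGCGATGGCTGG
The letters GGAC, a common form of the m6A consensus, searched for on the sense strand only, do not occur in the capitals, and 7.32% of 35116 RefSeq windows hold them in the same 20 bases. That says nothing of the remaining bases of the region, for which no sequence was used here. Peaks of 2 libraries also covered 219 bases of the CS window, chr12:56300362-56300580, which lie upstream of the gene body and so were not counted for CS. That stretch holds GGAC, as do 54.2% of the RefSeq windows in the same bases.

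OGDH, the E1 subunit of the 2-oxoglutarate dehydrogenase complex, held 3 to 5 peaks in the 786-O libraries and 2 to 4 in the RPTEC libraries. Its 14 regions included 3 called in 10 or more libraries, which were chr7:44624085-44624850 (12 libraries, percentile 89.1 to 99.3), chr7:44644844-44645380 (10 libraries, 81.7 to 93.9) and chr7:44700375-44701055 (12 libraries, 23.6 to 63.6). The first 2 ranked above the third in every call. 8 of the 14 OGDH regions were called in 1 library. The summits of the highest-ranked region lay within 38 bp over 12 libraries, those of the third within 526 bp. The table used here gives no strand for OGDH, so its regions were not placed relative to the 3′ end.

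The best OGDH percentiles in 786-O were 92.5, 99.3, 96.0 and 96.7 in the SETD2-expressing libraries and 89.1, 91.4, 86.9 and 95.2 in the SETD2KO libraries. The SETD2KO values were mostly lower, and the ranges overlapped because SETD2KO-2 replicate 2 exceeded WT replicate 1. The means were 96.1 ± 2.77 and 90.7 ± 3.56 (SD, n = 4 each, two-sided p = 0.0571 by exact permutation, adjusted p = 0.692 over 6394 genes). In RPTEC the corresponding means were 95.6 ± 2.59 and 81.2 ± 27.9 (exact permutation p = 0.4), where RPTEC SETD2KO-2 replicate 1 alone fell to 39.9.

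**Figure D3:**
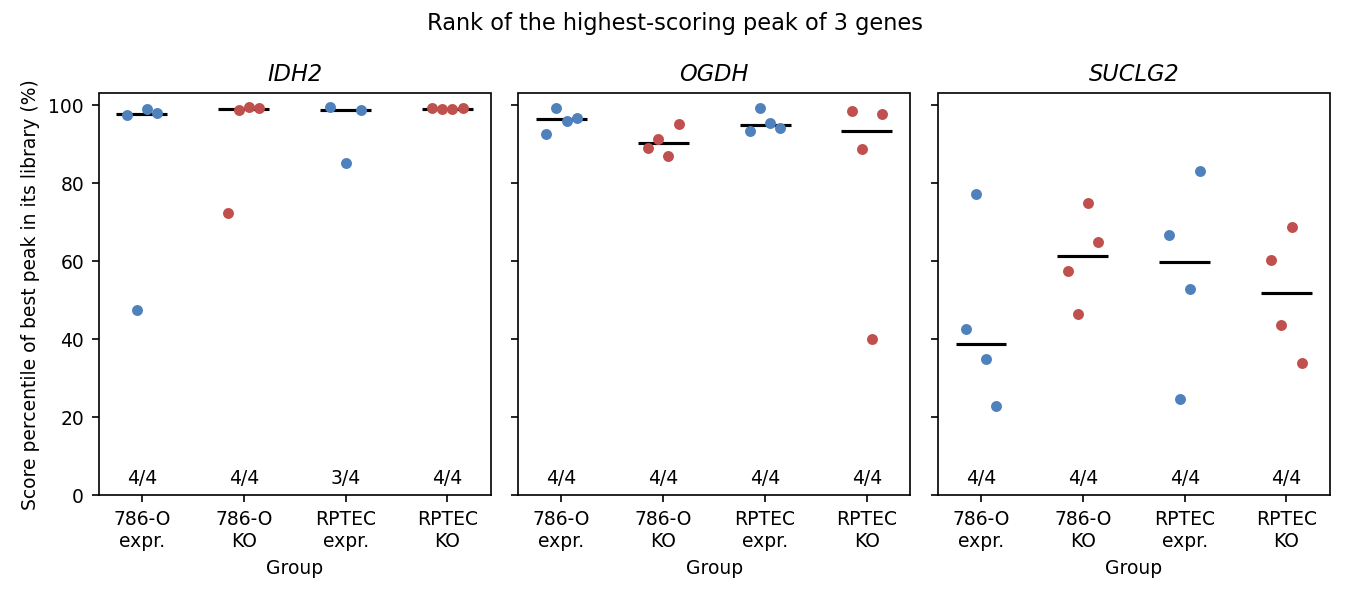
Score percentile of the highest-scoring peak of IDH2, OGDH and SUCLG2 in each library (points) by cell line and SETD2 status, with the median as a line and the number of libraries with a peak at the foot. Most IDH2 points lie above 97, the single RPTEC OGDH point at 39.9 is SETD2KO-2 replicate 1, and SUCLG2 points spread from 22.8 to 83.1.

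DLST, the dihydrolipoamide succinyltransferase (E2) that forms the core of the same complex, was the member whose calls followed SETD2 status in 786-O. It had 1 peak in each of WT replicates 1 and 2 and SETD2KO-1R replicates 1 and 2, and 0 in both libraries of SETD2KO-1 and both of SETD2KO-2. The 4 SETD2-expressing and 4 SETD2KO libraries did not overlap, and both libraries of each of the 4 lines agreed. This gave a two-sided exact permutation p = 0.0286, the smallest that 70 splits of 4 against 4 can give, with an adjusted p = 1 over 12430 genes. With the 2 lines on each side as units, p cannot fall below 0.333. Non-overlap with more peaks in SETD2-expressing libraries held for 0.901% of all genes tested, and in the other direction for 1.52%. Of the separated 786-O genes 62.8% had more peaks in SETD2KO libraries, and per 10000 peaks of the library the split turned to 223 genes with more and 335 with fewer. With 1 of 8 tested members in the first direction and 0 in the second, the count says nothing about the members as a group.

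All 4 of these peaks fell in a single region, chr14:74901938-74902259, 322 bp long and 1645 bp from the 3′ end of DLST, at 92.5% of the way along the gene. Their percentiles were 67.3 and 75.2 in WT and 70.5 and 65.0 in SETD2KO-1R. These were middle ranks, and the peaks were 267 to 295 bp long, close to the shortest that the libraries held (233 to 288 bp). The region was 1 of 40 member regions in 786-O and the only one that split the 4 and 4 libraries cleanly by SETD2 status (two-sided Fisher's exact test, p = 0.0286, adjusted p = 1 over 78921 regions). Among all 786-O regions 0.147% were called only in the 4 SETD2-expressing libraries and 0.475% only in the 4 SETD2KO libraries. With peaks shorter than 288 bp left out, which was tried only once the data had been seen, the region was left in 2 SETD2-expressing libraries and 0 SETD2KO libraries (Fisher's exact p = 0.429). Chromosome 14 took 2.55% ± 0.435 of peaks in the SETD2-expressing and 2.18% ± 0.0923 in the SETD2KO libraries of 786-O (exact permutation p = 0.2), and the part of this in the DLST result was not tested.

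In RPTEC, DLST had 0 peaks in WT, SETD2KO-1 and SETD2KO-2 and 1 in each SETD2KO-1R library. SETD2KO-1R replicate 1 called the same region as 786-O, at percentile 69.8, with all 5 summits within 38 bp. SETD2KO-1R replicate 2 called another, chr14:74883078-74883346, near the gene start, at percentile 46.0. The WT libraries thus matched the knockouts and differed from the rescue, and the mean difference of 0.5 peaks was not past the test (exact permutation p = 0.429). The difference of the SETD2KO effects on DLST between the 2 cell lines was -0.5 peaks and not past its test (exact permutation p = 0.608).

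**Figure D4:**
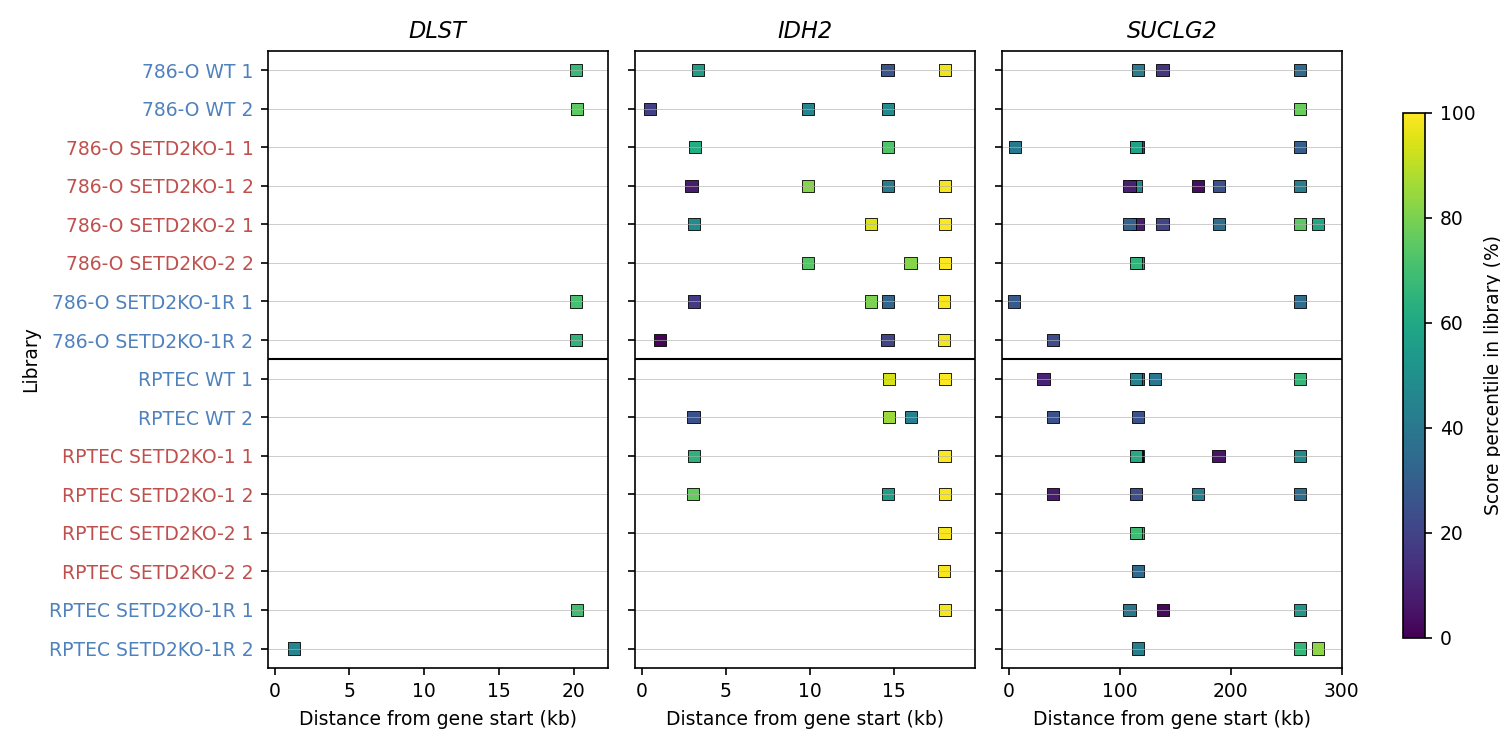
Position of each peak midpoint in kb from the gene start (x) in each library (y) for DLST, IDH2 and SUCLG2, coloured by the score percentile in the library. Red labels are SETD2KO and blue labels SETD2-expressing libraries, with 786-O above the line. The DLST peak near 20 kb appears in all 4 blue 786-O libraries and in 1 RPTEC rescue library, while the yellow IDH2 peak near 18 kb appears in 12 libraries of both kinds.

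SUCLA2 and SUCLG2 encode the beta subunits of the ADP-forming and the GDP-forming succinyl-CoA synthetase. SUCLA2 had 1 peak in each of the 4 786-O SETD2KO libraries, 0 in both WT libraries, and 1 and 0 in SETD2KO-1R. The rescue library with a peak made the groups overlap, and the difference of 0.75 peaks was not past the test (exact permutation p = 0.143). The 4 SETD2KO peaks lay in 3 different regions, 2 of them at chr13:47951845-47952523, with percentiles from 4.38 to 49.2. In RPTEC the counts ran the other way, at 0, 0, 1 and 0 in SETD2KO libraries and 1, 0, 1 and 1 in SETD2-expressing ones (exact permutation p = 0.486). The difference of the 2 effects was 1.25 peaks (exact permutation p = 0.0469, adjusted p = 1 over 11195 genes). At an adjusted p of at most 0.05 no gene passed this test in either direction, 0% and 0%, and 394 genes had an unadjusted p of at most 0.05. Chromosome 13 took 1.95% ± 0.0946 of peaks in the 786-O SETD2KO libraries and 1.79% ± 0.0157 in the SETD2-expressing ones (exact permutation p = 0.0286), and the part of this in the SUCLA2 counts was not tested.

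SUCLG2 had 4, 5, 6 and 2 peaks in the 786-O SETD2KO libraries and 3, 1, 2 and 1 in the SETD2-expressing libraries. SETD2KO-2 replicate 2, at 2, made the groups overlap. The means were 4.25 ± 1.71 and 1.75 ± 0.957 (SD, n = 4 each, exact permutation p = 0.0857, adjusted p = 1). Without SETD2KO-2 replicate 2 the groups separated, by 3.25 peaks, as 4.60% of all genes then did in either direction. The difference of 2.5 peaks shrank to 1 when every library kept only the same number of its highest-scoring peaks (exact permutation p = 0.171). It also shrank to 1 in the higher-scoring 50% of peaks (exact permutation p = 0.257). Per 10000 peaks of the library it was 0.648 (exact permutation p = 0.0571, adjusted p = 0.698). In RPTEC the means were 3.0 ± 1.83 and 3.25 ± 1.26 (exact permutation p = 1), with counts from 1 to 5 on both sides together. The difference of the 2 effects was 2.75 peaks (exact permutation p = 0.136). SUCLG2 lies on the short arm of chromosome 3, and chromosome 3 took 5.13% ± 0.253 and 4.70% ± 0.423 of the 786-O peaks with and without the knockout, respectively (exact permutation p = 0.171).

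Within SUCLG2, the region chr3:67540061-67540446, 114 kb into the gene, had a peak in 3 SETD2KO libraries of 786-O and in none of the SETD2-expressing ones, and in 3 and 1 in RPTEC. Its percentiles ran from 23.7 to 68.7. Over both cell lines 6 SETD2KO libraries and 1 SETD2-expressing library had it, whereas 0 and 5 had the DLST region. These were the members' regions with a difference of at least 5 libraries, a rule set after seeing the calls and given without a test. Of all 99258 regions 0.473% had at least 5 more SETD2KO libraries and 0.266% at least 5 more SETD2-expressing libraries. The most often called SUCLG2 region, chr3:67391838-67392530, was called in 11 libraries on both sides of each comparison, with percentiles from 29.4 to 77.3.

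MDH2, the mitochondrial malate dehydrogenase that regenerates oxaloacetate, had 1 and 2 peaks in 786-O WT, 0 and 1 in SETD2KO-1, 1 and 0 in SETD2KO-2, and 0 and 1 in SETD2KO-1R. In RPTEC 1 library of SETD2KO-2 and 1 of SETD2KO-1R had a peak. No line had the same count in both libraries except RPTEC WT and RPTEC SETD2KO-1, both at 0. The region chr7:76048288-76048899, 488 bp from the gene start, was called in 4 libraries, 3 in 786-O and 1 in RPTEC, each in 1 of the 2 libraries of its line. Its percentiles of 89.1 to 97.7 were high, while the 3 calls of the neighbouring region chr7:76049196-76049685 ranked at 6.46 or lower. Peak counts did not separate by SETD2 status (exact permutation p = 0.657 in 786-O and p = 1 in RPTEC).

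**Figure D5:**
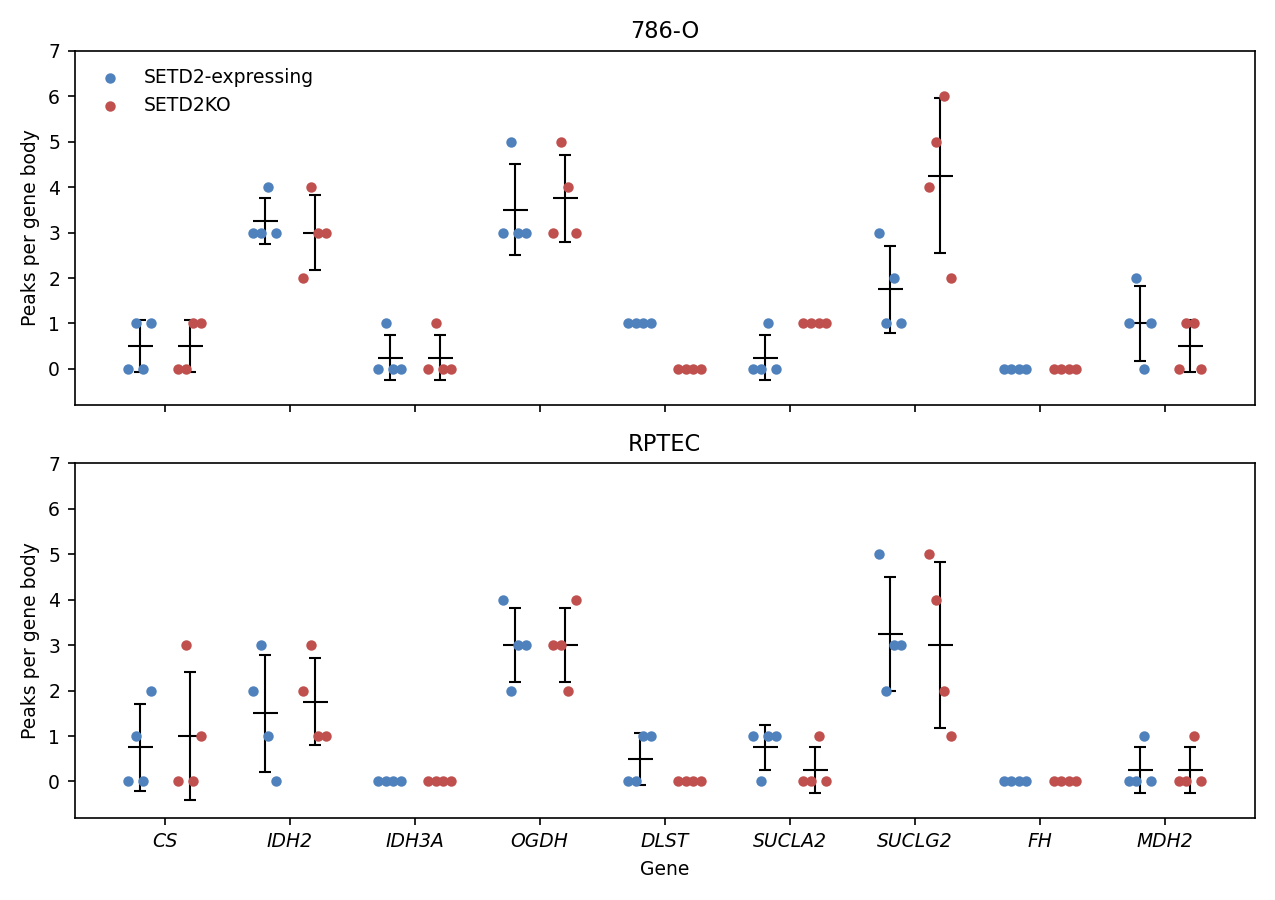
Peaks per gene body in SETD2-expressing (blue) and SETD2KO (red) libraries, 4 points each, for 786-O (top) and RPTEC (bottom), with the mean as a dash and 1 SD as bars. DLST in 786-O is the gene whose red and blue points do not overlap, SUCLG2 shows 4.25 against 1.75 with overlap, and no gene separates in RPTEC.

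Between SETD2KO and SETD2-expressing libraries the median difference over the 8 members tested in 786-O was 0 peaks, and it was 0 over all genes. In RPTEC it was 0 over 7 members and -0.25 over all genes, and 0 of the 7 members separated in either direction, where 1.01% of all genes did with more peaks in SETD2KO and 1.41% with more in SETD2-expressing libraries. Of the separated genes, 41.7% had more peaks in SETD2KO libraries, and 52.6% did per 10000 peaks. Of 35 member regions in RPTEC, 0 split the libraries cleanly by SETD2 status, which 0.263% of all regions were for SETD2KO and 0.212% for SETD2-expressing libraries. Best percentiles could be compared for the members with a peak in all 8 libraries. These were IDH2, OGDH and SUCLG2 in 786-O, and 0 of the 3 separated, against 2.46% of all genes higher in SETD2KO and 2.11% higher in SETD2-expressing libraries. In RPTEC they were OGDH and SUCLG2, and 0 of the 2 separated, against 1.73% and 1.98%. The SUCLG2 best percentile in 786-O was 61.0 ± 11.9 for the knockouts and 44.4 ± 23.4 for the lines with SETD2 (exact permutation p = 0.257).

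Between the cell lines, 0 of 8 members passed an adjusted p of 0.05, against 3.44% of 13420 genes with more peaks in 786-O and 1.92% with more in RPTEC. Of the genes that passed, 64.3% had more peaks in 786-O, and 45.6% did per 10000 peaks. The median difference over the members was 0.25 peaks, and it was 0.25 over all genes. For the best percentile 0 of 2 members passed, against 1.08% of 4626 genes higher in 786-O and 0.476% higher in RPTEC. Of the 49 member regions 0 were called in at least 7 libraries of one cell line and at most 1 of the other, against 0.659% of all regions for 786-O and 0.380% for RPTEC. After IDH2, the largest difference in mean peaks was that of OGDH, 3.63 ± 0.916 in 786-O and 3.0 ± 0.756 in RPTEC (SD, n = 8 each, exact permutation p = 0.261). That order held for raw peak counts. With the same number of peaks in every library the OGDH difference was 0, and the largest was that of SUCLG2, at -1.25 peaks, with more in RPTEC (exact permutation p = 0.0315, adjusted p = 0.280).

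By position, 17.5% ± 9.70 of member peaks in 786-O (SD over 8 libraries, OGDH left out for lack of strand) lay in the last 10% of the gene body, against 19.9% ± 1.13 of peaks of all protein-coding genes with a strand. In RPTEC the shares were 21.7% ± 7.56 and 21.3% ± 1.28. The first 10% held 15.8% ± 10.7 of member peaks in 786-O and 6.07% ± 8.56 in RPTEC, against 16.1% ± 1.61 and 14.4% ± 2.18 of all peaks. The member shares rest on 70 peaks in 786-O and 53 in RPTEC, and their spread between libraries covers the values of all genes.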

How the data were processed

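Per the labels and the study's methods, the authors extracted total RNA, immunoprecipitated m6A from fragmented RNA with an E. coli spike-in, and made stranded libraries. They called peaks of IP over Input for each library. The submitters' processing notes name STAR, HTSeq, MACS2 and hg38. The deposited lists hold, per library, each peak's position, summit and a whole-number score whose scale the authors do not state, so the score served as a percentile rank within its list. The remaining value columns are 0 and were not used. Read counts and the 16 Input samples were not used here, so depth is unknown.

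The members, the lists and the comparisons were chosen with earlier results of these data known. The genes named are all 9 members, SETD2 and METTL3 as checks (METTL3 held 0 or 1 peak in every library), at most 5 genes per comparison from the pathway lists whose groups do not overlap or, between cell lines, pass the threshold, the member regions called in at least 3 more libraries of one side or in all 16, and the 3 genes most correlated with the members' sum. Other regions named were chosen after their values were seen.

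Peaks were assigned to gene bodies by an overlap of at least 1 bp. Regions are peaks merged by overlap over the libraries compared. Groups were compared by two-sided exact permutation tests of the difference of means, and regions by Fisher's exact test. p-values were adjusted by the Benjamini-Hochberg method over all genes or regions tested. Genes count as separated within a cell line when the 4 SETD2KO and 4 SETD2-expressing values do not overlap, and as called between cell lines at an adjusted p of at most 0.05. Alternatives were the higher-scoring 50% of peaks, lists reduced to equal numbers of peaks, an overlap of 50 bp, peak midpoints, WT alone or each clone alone, peaks per 10000, base pairs covered, merging within 100 bp, regions covered by at least 50%, one SETD2 status alone, leaving out single libraries, and a replicate block. Equal numbers of peaks were reached by keeping the highest-scoring peaks of each list. A minimum peak length of 288 bp was added after seeing the data. A result of the other TCA cycle genes in RPTEC is not reported here. The steps were tested on simulated data. Calculations ran in SciPy 1.17.1, pandas 2.3.3 and NumPy 2.4.6 under Python 3.11.15, and figures were drawn with Matplotlib 3.10.9.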

Additional observations from a re-analysis of the deposited data

Results flagged for a closer look

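In 49 groups of 4 libraries, 12 values of these genes stood far from the other 3 of their group. The rule is made to flag about 1 in 20 groups of continuous values. For counts, a single library that differs from 3 equal ones is enough, so the 12 cannot be set against that rate. Most of the 12 are such counts. IDH2 had 4 peaks in 786-O SETD2KO-1R replicate 1 against 3 in the other SETD2-expressing libraries, and OGDH 5 in 786-O WT replicate 2 against 3. The best IDH2 percentile was 72.4 in 786-O SETD2KO-1 replicate 1 (98.6 to 99.6 in the other SETD2KO libraries) and 47.6 in 786-O WT replicate 2 (97.5 to 99.1 in the others). Both libraries lack the IDH2 peak near the 3′ end. The best OGDH percentile was 39.9 in RPTEC SETD2KO-2 replicate 1, against 88.7 to 98.5. IDH3A had 1 peak in 786-O SETD2KO-1 replicate 2 and 1 in 786-O WT replicate 2 against 0 in the others of each group. SUCLA2 had 1 peak in 786-O SETD2KO-1R replicate 1 and 1 in RPTEC SETD2KO-2 replicate 1 against 0, and 0 in RPTEC WT replicate 2 against 1. MDH2 had 1 peak in RPTEC SETD2KO-2 replicate 1 and 1 in RPTEC SETD2KO-1R replicate 1 against 0.

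SUCLA2 was also the member whose SETD2KO effects in the 2 cell lines differed by a test of the difference itself, by 1.25 peaks (exact permutation p = 0.0469). It did not pass after adjustment over all genes (adjusted exact permutation p = 1).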

How the results depend on the processing

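The non-overlap of DLST in 786-O was lost with a minimum peak length (difference -0.5, exact permutation p = 0.429). It was kept in the higher-scoring 50% of peaks, at equal numbers of peaks, with an overlap of 50 bp and by peak midpoints. These settings could not have ended it, since they only remove peaks. The DLST peaks ranked at percentiles 65.0 to 75.2, and their region lay 1645 bp from the 3′ end. The other alternatives could not end it either, since leaving out libraries or rescaling keeps 0 peaks against at least 1. With the replicate block the exact permutation p of DLST was 0.0556, the smallest that 36 splits allow and also the p of SUCLG2 in 786-O, whose SETD2KO counts were above the others within each replicate number (adjusted p = 1). Non-overlap within a cell line does not use the block, so that the block could change calls between cell lines only. There 0 members passed with it, and the genes that passed went from 462 and 257 to 427 and 246. Same-numbered libraries of different lines were not taken as pairs, since their deviations correlated at -0.19 to 0.38 in 786-O and -0.35 to 0.32 in RPTEC. Where 1 member separated by peak count in 786-O, 2 did against WT only (SUCLA2 added) and with SETD2KO-1 only (SUCLG2 added), where the share of all genes that separated also rose, from 2.42% to 8.87% and 7.44%. The number was 0 with a minimum peak length, and 1 to 2 with each library left out (SUCLG2 without SETD2KO-2 replicate 2, SUCLA2 without SETD2KO-1R replicate 1), where 3.29% to 4.60% of all genes separated. For best percentiles in 786-O, 0 separated, 1 with SETD2KO-1 only (OGDH) and 1 with SETD2KO-2 only (IDH2), and 0 to 1 with each library left out (OGDH without WT replicate 1 or SETD2KO-2 replicate 2, SUCLG2 without WT replicate 2). Of all genes 4.57% separated by best percentile, 15.5% with SETD2KO-1 only, 13.99% with SETD2KO-2 only, and 7.23% to 8.93% with each library left out. Of the 786-O member regions, 1 split the libraries cleanly by SETD2 status, 2 did with SETD2KO-1 only, 3 with SETD2KO-2 only, 2 with regions covered by at least 50%, 0 with a minimum peak length, and 1 to 2 with each library left out (2 without SETD2KO-2 replicate 1). Of all regions 0.622% did, 2.81% and 2.39% with each clone alone, 0.518% with the coverage rule and 0.984% to 1.38% with each library left out. Between cell lines 0 members passed, and 1 (IDH2) by base pairs covered, where the share of all genes that passed also rose, from 5.36% to 11.4%. The causes were not tested, beyond the smaller groups that some alternatives leave. The number of members called in RPTEC stayed at 0 under every alternative run. Depth could not be varied, since the lists hold no reads. Over all genes, those separated in 786-O numbered 189 with more peaks in SETD2KO and 112 with fewer, but 223 and 335 per 10000 peaks, 408 and 241 by base pairs covered and 87 and 72 in the higher-scoring 50%. In RPTEC they numbered 123 and 172, 264 and 238, 210 and 359, and 70 and 77 in the same order. Genes passing between cell lines numbered 462 with more peaks in 786-O and 257 with fewer, 430 and 512 per 10000 peaks, 1170 and 356 by base pairs covered, 148 and 282 at equal numbers of peaks, 59 and 66 in the higher-scoring 50%, and 0 within either SETD2 status alone, where each side has 4 libraries.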

Other observations

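The other genes around the cycle were read from 3 lists. Of 6 other TCA cycle genes tested, 0 separated by peak count in 786-O. The median difference of the 6 genes was 0.25 in 786-O and -0.375 in RPTEC, against 0 and -0.25 over all genes, and 0 of the 6 passed between the cell lines. Of the pyruvate entry genes, 0 of 10 separated in 786-O and 0 of 11 in RPTEC, and 0 of 11 passed between the cell lines. Of the anaplerosis and export genes, 0 of 13 separated in 786-O and 1 of 14 in RPTEC. That gene was GOT2, the mitochondrial aspartate aminotransferase, with 0 peaks in each SETD2KO library and 1, 2, 1 and 1 in the SETD2-expressing ones (exact permutation p = 0.0286, adjusted p = 1), a direction in which 1.41% of all genes separated. It no longer separated at equal numbers of peaks, in the higher-scoring 50% or with a minimum peak length. Their median difference was 0.25 in 786-O and -0.375 in RPTEC.

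Between the cell lines 2 of the 14 anaplerosis and export genes passed with more peaks in 786-O, as did 3.44% of 13420 genes. GPT2, the mitochondrial alanine aminotransferase, had 5.0 ± 1.07 peaks in 786-O and 2.0 ± 0.756 in RPTEC (SD, n = 8 each, adjusted exact permutation p = 0.00831), with 4 to 7 and 1 to 3 peaks. D2HGDH, which oxidizes D-2-hydroxyglutarate to 2-oxoglutarate, had 4.0 ± 0.926 and 2.0 ± 0.535 (adjusted exact permutation p = 0.0220). With the same number of peaks in every library neither passed, at differences of 0.25 peaks for GPT2 (adjusted exact permutation p = 1) and 1 peak for D2HGDH (adjusted exact permutation p = 0.238), and neither passed in the higher-scoring 50%. Per 10000 peaks GPT2 passed (adjusted exact permutation p = 0.0104) and D2HGDH did not (adjusted exact permutation p = 0.119), nor did D2HGDH with a minimum peak length (adjusted exact permutation p = 0.101). By best percentile, 1 of 4 other TCA cycle genes and 1 of 6 anaplerosis and export genes separated in 786-O and 1 of 5 anaplerosis and export genes in RPTEC, each higher in SETD2KO, as were 2.46% of all genes in 786-O and 1.73% in RPTEC. ACO1, cytosolic aconitase, was at 63.0 ± 9.66 in 786-O SETD2KO and 18.7 ± 14.4 in SETD2-expressing libraries (SD, n = 4 each, exact permutation p = 0.0286, adjusted p = 0.626). GLUD1, glutamate dehydrogenase, ranged from 88.3 to 91.7 and from 76.6 to 82.9 in the same groups, with the same exact permutation p and adjusted p. ME1, cytosolic malic enzyme, was at 76.1 ± 16.1 and 38.8 ± 22.7 in RPTEC (exact permutation p = 0.0286, adjusted p = 0.770). ME1 there had a mean of 8 and 6 peaks in SETD2KO-1 and SETD2KO-2 and 3.5 and 2 in WT and SETD2KO-1R. The ACO1 means in 786-O were 3 and 3 against 1.5 and 1. The part of peak number in the best percentile was not tested. At equal numbers of peaks and in the higher-scoring 50%, GLUD1 separated, while ACO1 and ME1 lacked a peak in some library and were not compared.

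The genes whose peak counts were most like the members' sum over the 16 libraries, among 9719 genes with a peak in at least 8, were CCDC180 (Pearson r = 0.92), SCUBE3 (r = 0.90) and ATP6V1C2 (r = 0.90). The members' sum itself had r = 0.83 with the number of peaks in the library, which all these counts share.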
